A study of Mus musculus with 18 samples.

Results

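Cardiomyocytes were compared with cardiac fibroblasts of the same hearts in mice that carry a Bag3-P209L transgene (Tg+). The members were the 9 Tg+ libraries of the 18 in the series. Each of 3 Tg+ mice gave 2 cardiomyocyte libraries (rep1 and rep2, whose counts were summed into 1 column) and 1 fibroblast library, and the columns were paired by the animal code in the titles. The codes were C36 F10 (Tg mouse 1), C37 M10 (Tg mouse 2) and C52 F00 (Tg mouse 3). Of the 19094 genes in the table, 13419 had enough counts to be tested. All mice were 16 months old, the age of the 3 Bag3-WT mice that serve below for a comparison of genotypes. Every group came from cells isolated from the heart, and the Tg+ cardiomyocytes and Tg+ fibroblasts both carry the transgene. Which promoter drives it, in which cells it is active, how many founder lines were used and whether it is mouse or human sequence are not stated in the sources used here. RNA was extracted from the isolated cells, captured on oligo(dT) and sequenced on Illumina instruments.

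BAG3 is a co-chaperone that holds HSP70 and the small heat shock proteins together, keeps Z-disc proteins folded and hands damaged ones to autophagy through the receptor p62. The P209L change replaces a proline by a leucine in a motif that binds small heat shock proteins, and in people it causes a myopathy that affects the heart. Cardiomyocytes are the contracting cells, packed with sarcomeres and mitochondria, whereas fibroblasts secrete and remodel the collagen matrix and can release chemokines when activated.

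The nuclear genes, those outside the mitochondrial genome, held 7.79 M, 4.24 M and 2.74 M counts (M for 1000000) in the cardiomyocyte columns of Tg mice 1, 2 and 3, against 14.8 M, 14.9 M and 11.3 M in the fibroblast columns. Levels below are counts per 1000000 nuclear counts (CPM) after TMM scaling, listed in the order of Tg mouse 1, 2 and 3. A log2 fold change is cardiomyocyte over fibroblast within mice. Its standard error (SE) is its absolute value divided by the square root of the F statistic of edgeR's quasi-likelihood test. That test also gave the adjusted p-values, over all genes tested. Cardiomyocyte libraries had an extra round of sequencing per the labels, so the sequencing and the cell type cannot be told apart. The cardiomyocyte column of Tg mouse 3 stood apart. Its log2 CPM correlated across genes at 0.772 and 0.828 with the other cardiomyocyte columns, which correlated at 0.937 with each other, while the fibroblast columns correlated at 0.941 to 0.981. That column also held 62 counts of the Y-linked gene Ddx3y and 172 of Eif2s3y, against the letter F of its animal code. The fibroblast column of the same mouse held 0 of both. Of the Y-linked genes Kdm5d and Uty that cardiomyocyte column held 1 and 0 counts, against 14 and 36 in Tg mouse 2. Tg mouse 1, also coded F, held 24 counts of Eif2s3y and 3 of Uty in its cardiomyocytes and 0 of both in its fibroblasts. Because the column of Tg mouse 3 stood apart, named genes whose call changed without that mouse are given with and without it. So are some lists and some, but not all, of the genes for which it stood far from the other mice.

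In all, 419 genes were higher in cardiomyocytes (3.12% of those tested) and 1236 were lower (9.21%) at an adjusted p under 0.05. The counts of called list members below are to be read beside these shares. The median fold change was 4.12 for the higher and 4.92 for the lower genes, and 91 higher and 316 lower genes differed at least 10-fold. Cardiomyocyte levels lay above all fibroblast levels for 2634 genes (19.6%) and below all of them for 2913 (21.7%), called or not. Of the called genes, 398 of the 419 higher and 1180 of the 1236 lower did not overlap between the cell types. Among the 419 higher genes the highest cardiomyocyte column was Tg mouse 3 for 306, and among the 1236 lower genes the highest fibroblast column was Tg mouse 2 for 823.

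The counts of calls moved with the mice in the fit. Without Tg mouse 2, 243 genes were higher and 741 lower, and 172 and 680 of the original calls stayed called. Without Tg mouse 3, 1644 were higher and 2577 lower, and 398 and 1235 of the original calls stayed. Calls and list counts given below without that mouse come from this fit. It called more genes in both directions than the fit of all mice, so a gained call is to be read beside that rise. Scaling by library size alone raised the median log2 fold change of all genes from −0.01 to 0.34 and turned the split into 810 higher and 793 lower. Values below are relative to a median gene near 0. In these bulk samples fewer cells of a type and less RNA per cell cannot be told apart.

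**Figure D1:**
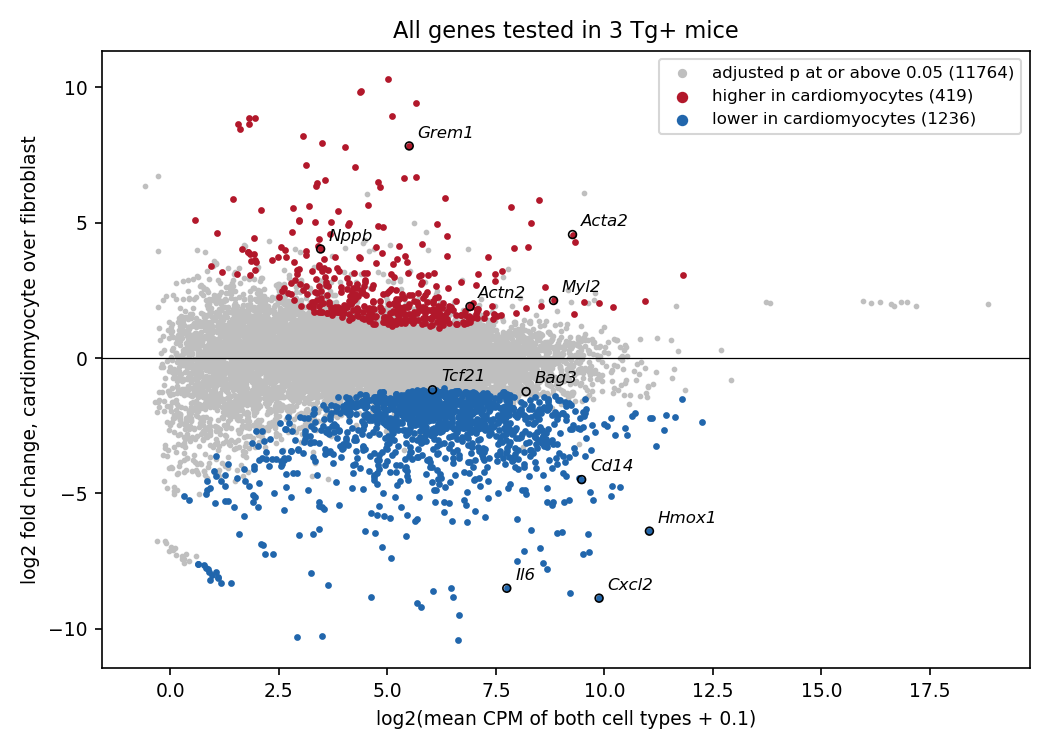
Log2 fold change of cardiomyocyte over fibroblast (vertical axis) against the log2 mean CPM of both cell types (horizontal axis) for the 13419 genes tested in 3 Tg+ mice. Red points are the 419 higher and blue points the 1236 lower genes, and the lower genes reach further from 0 at high levels, where Cxcl2 and Hmox1 lie.

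The labels were checked first against 4 markers. Myl2, the ventricular regulatory myosin light chain, stood at 491, 1077 and 663 CPM in cardiomyocytes and at 156, 119.9 and 221 CPM in fibroblast libraries. Actn2, the sarcomeric alpha-actinin of the Z-disc, stood at 78.5, 221 and 281 CPM against 42.7, 46.0 and 48.4. Neither gene overlapped between the cell types, and Myl2 (log2 fold change 2.12, SE 0.46, adjusted p = 0.0282) and Actn2 (1.90, SE 0.42, adjusted p = 0.0308) passed the test. Both lost the call without Tg mouse 2, where Myl2 had an adjusted p of 0.2 and Actn2 of 0.12. The fibroblast libraries thus still held Myl2 above 100 CPM in each mouse.

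Tcf21, a transcription factor of cardiac fibroblasts, did not pass with all 3 mice. Its level was 43.6, 61.2 and 19.3 CPM in cardiomyocytes and 61.5, 135 and 73.9 in fibroblast libraries (log2 fold change −1.17, SE 0.37, adjusted p = 0.0786), and it passed without Tg mouse 3 (−0.83, adjusted p = 0.0344). Cd14, the lipopolysaccharide co-receptor of monocytes and macrophages, separated the columns far more. It stood at 78.6, 78.6 and 28.2 CPM in cardiomyocytes and at 1379, 1978 and 729.8 CPM in fibroblast libraries (log2 fold change −4.49, SE 0.41, adjusted p = 0.00244), a 22.5-fold difference.

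**Figure D2:**
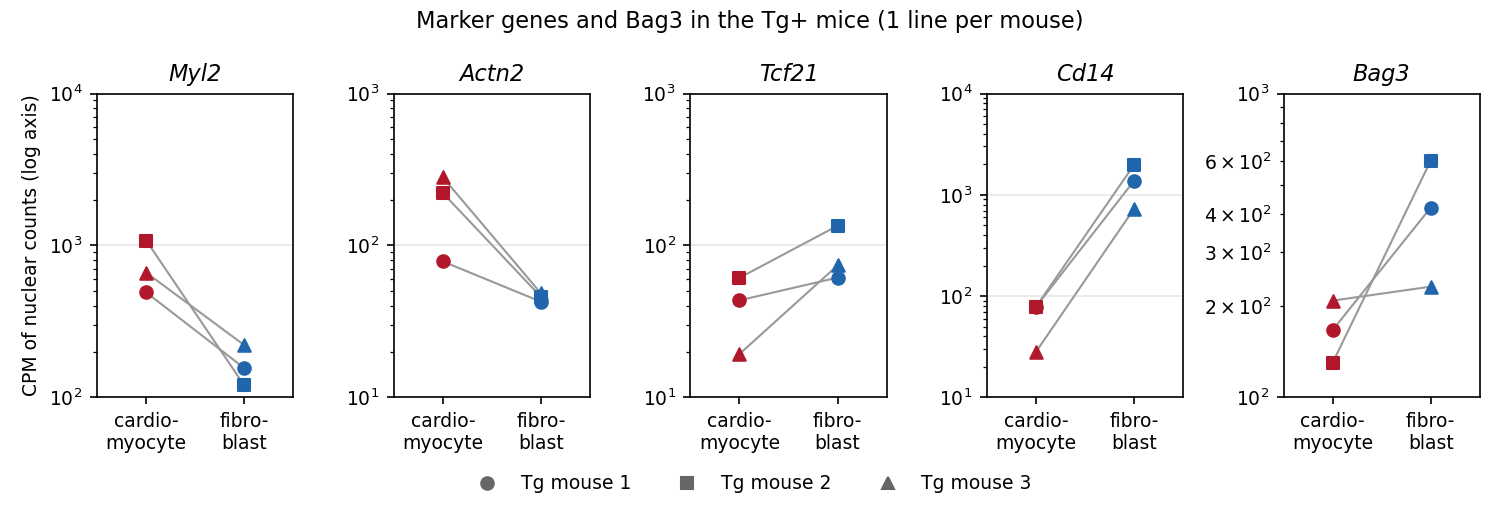
CPM on a log axis of Myl2, Actn2, Tcf21, Cd14 and Bag3 in the cardiomyocyte and fibroblast columns, with 1 symbol and 1 line for each Tg+ mouse. Every line falls from cardiomyocyte to fibroblast for Myl2 and Actn2 and rises for Tcf21, Cd14 and Bag3, and the lines of Cd14 are the steepest.

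The marker lists gave the same picture. All 14 cardiomyocyte markers lay above the fibroblast libraries without overlap (background 19.6%) and 10 were called higher, with a median log2 fold change of 1.61 against −0.01 for all genes. Without Tg mouse 2, 0 of the 14 were called, with a median of 1.2. Summed over the list, cardiomyocyte markers reached 3718, 7615 and 7405 CPM in cardiomyocytes and 1870, 1513 and 2434 in fibroblast libraries. As a list, fibroblast markers did not clearly separate the columns. Of 14, only Col1a1 was called by edgeR, and it was higher in cardiomyocytes. Without overlap, 5 of the 14 lay below in cardiomyocytes (background 21.7%) and 2 above. Lower in cardiomyocytes were 2 at an unadjusted p under 0.05 and by DESeq2, and 1 by voom. The summed fibroblast marker level was 18344, 14607 and 10129 CPM in cardiomyocytes and 12210, 20640 and 15358 in fibroblast libraries, with overlap. The list's median was −0.45, and 0.00 without Tg mouse 3. The libraries are called fibroblast below as labelled, although these markers hardly set them apart.

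Macrophage markers separated the columns most clearly of the other cell types. Of 15, 13 were lower in cardiomyocytes and 0 higher (median −2.03), and 9 to 15 were lower when each mouse was left out in turn. The summed level was 3132, 4161 and 1286 CPM in cardiomyocytes and 11511, 15376 and 6274 in fibroblast libraries. Cd68, a lysosomal glycoprotein of macrophages, stood at 45.7, 85.7 and 10.4 CPM against 348, 598 and 216. Endothelial markers overlapped, at 9029, 5629 and 4010 CPM against 7801, 5907 and 7956, and 1 of 12 was called: Cldn5, a tight junction protein of vessels, was lower in cardiomyocytes (log2 fold change −2.43). Smooth muscle and pericyte markers summed to 2076, 3149 and 5090 CPM against 709, 803 and 2348.

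Some markers followed single hearts or libraries. Mesothelial markers summed to 1127, 675 and 59.8 CPM in cardiomyocytes and 150, 165 and 97.0 in fibroblast libraries, and 6 of 9 were called higher and 1 lower. Upk3b, a mesothelial membrane protein, stood at 460.5, 285 and 7.42 CPM against 31.1, 27.6 and 2.35, so that the groups overlapped while each mouse was higher in its cardiomyocytes. Wt1, the epicardial transcription factor, went the other way (45.2, 15.8 and 23 against 71.8, 102 and 89.6 CPM, log2 fold change −1.76). Scgb1a1, a secretoglobin of airway club cells, reached 467 CPM in the cardiomyocytes of Tg mouse 1 and 5.14 and 2.23 in the others, against 6.53, 0 and 0.18 in fibroblast libraries. It was called, and without Tg mouse 1 the adjusted p was 0.059. Erythroid markers summed to 3597, 6919 and 72.4 CPM against 10515, 13594 and 165, low in both columns of Tg mouse 3. Of 6 erythroid markers 0 were called by edgeR, 5 were lower at an unadjusted p under 0.05, by DESeq2 and without Tg mouse 3, and 3 by voom.

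**Figure D3:**
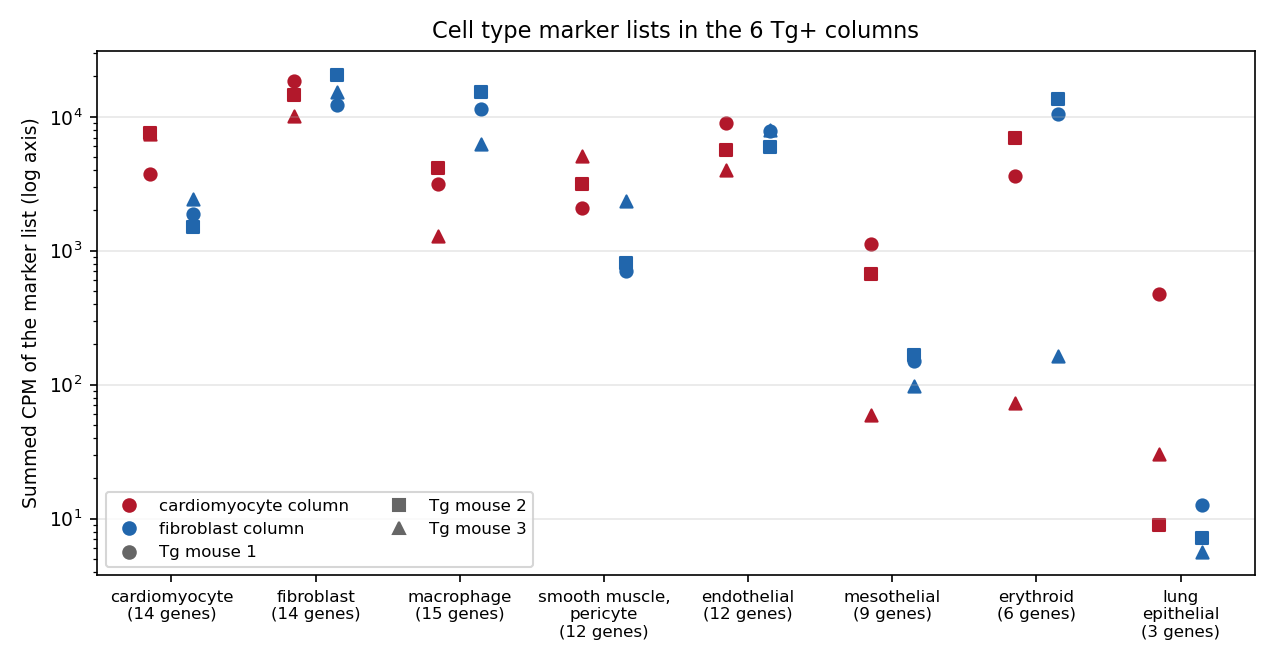
Summed CPM (log axis) of 8 lists of cell type markers in the 6 Tg+ columns, red for cardiomyocyte and blue for fibroblast, with 1 symbol shape for each mouse. The cardiomyocyte and macrophage lists do not overlap between the cell types, while the fibroblast and endothelial lists do, and the erythroid list is lowest in both columns of Tg mouse 3.

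The sarcomere genes that reached significance were all higher in cardiomyocytes. In the thick filament and M-band, 5 of 15 were higher and 0 lower (median 1.32). Ttn, the giant spring protein titin, stood at 50.4, 55.1 and 79.1 CPM against 16.7, 10.5 and 28.9 in fibroblast libraries (log2 fold change 1.81, SE 0.34, adjusted p = 0.0186). Myl3, the essential light chain, stood at 282, 631 and 471 CPM against 107, 95.9 and 175. Myom2, an M-band cross-linker, stood at 47.1, 52.9 and 92.8 CPM against 22, 14.8 and 24.1. None of these 3 overlapped. The count fell to 0 without Tg mouse 2 and was 10 without Tg mouse 3, and the median stayed between 1.05 and 1.60 over the leave-outs.

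The thin filament had 7 of 14 genes higher and 0 lower, with a median of 1.62. Tpm2, beta-tropomyosin, stood at 131, 279 and 1342 CPM in cardiomyocytes and 17.8, 19.2 and 28.0 in fibroblast libraries, a 17.0-fold difference (log2 fold change 4.09, SE 0.62, adjusted p = 0.00803). The cardiomyocytes of Tg mouse 3 were far above the other mice for this gene, and without them the log2 fold change was 3.35 (adjusted p = 0.000464). Tpm1, alpha-tropomyosin, stood at 699.9, 1595 and 2352 CPM against 309, 280.3 and 441. Lmod3, a leiomodin that nucleates thin filaments, stood at 3.93, 12.6 and 16.7 CPM against 1.25, 1.98 and 2.35. The count of higher genes was 2 without Tg mouse 2.

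The cardiac and skeletal sarcomeric actins were spread over the mice in their own way. Actc1, the cardiac actin, stood at 434, 1200.1 and 2032 CPM against 246, 199.6 and 311, lowest in Tg mouse 1 and without overlap (log2 fold change 2.06, SE 0.50, adjusted p = 0.0405). Acta1, the skeletal actin that the heart re-expresses under load, stood at 27.0, 1099 and 3294 CPM in cardiomyocytes and at 8.00, 12.5 and 5.77 CPM in fibroblast libraries. The columns did not overlap, but Acta1 fell short of the threshold (log2 fold change 6.08, SE 1.61, adjusted p = 0.0517). It passed without Tg mouse 1 and without Tg mouse 2, and without Tg mouse 3 its log2 fold change was 4.18 with an adjusted p of 0.208.

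Because both actin genes hold a CArG box, the 250 bases before their RefSeq starts are shown (GRCm38.p6). The CArG box, the letters that serum response factor binds, is in capitals. The Actc1 window is chr2:114052876-114053125 and the Acta1 window chr8:123894776-123895025, both on the minus strand and written 5′ to 3′.
Actc1: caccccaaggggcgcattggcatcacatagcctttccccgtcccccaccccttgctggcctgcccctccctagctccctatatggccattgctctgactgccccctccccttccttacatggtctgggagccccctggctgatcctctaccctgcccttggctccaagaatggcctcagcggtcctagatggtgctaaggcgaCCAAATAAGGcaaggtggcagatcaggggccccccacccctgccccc
Acta1: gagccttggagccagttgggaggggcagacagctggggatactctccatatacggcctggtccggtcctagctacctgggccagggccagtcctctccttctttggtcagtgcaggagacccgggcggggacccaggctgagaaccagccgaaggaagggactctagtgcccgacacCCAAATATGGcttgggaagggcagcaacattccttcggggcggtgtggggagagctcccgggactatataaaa
The CArG box lies 47 bases before the start in Actc1 and 73 bases before it in Acta1. Searched on both strands from 250 bases before to 50 after the start, the box was in 25% of the thin filament genes with a promoter (3 of 12) and in 29.4% of the Z-disc and costamere genes (5 of 17). It was in 1.81% of all 27025 genes with a RefSeq promoter and 1.63% of the 10042 tested ones, and in 0 of the 8 smooth muscle and pericyte markers with a promoter in the table. Among called genes with a promoter it was in 1.92% of the 312 higher and 1.84% of the 925 lower genes. Both shares are near that of the tested genes. A match describes these letters and is not evidence of binding.

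At the Z-disc and costamere, which anchor the filaments and hold most known BAG3 clients, 8 of 22 genes were higher and 0 lower (median 1.47). Myoz2, calsarcin, stood at 87.5, 162 and 89.8 CPM against 22.5, 19.7 and 29.1 (log2 fold change 2.21, SE 0.38, adjusted p = 0.0135). Fhl2, a LIM protein of the Z-disc, stood at 92.3, 146 and 143 CPM against 33.6, 32.1 and 52.8, again without overlap. The count was 2 without Tg mouse 2 and 18 without Tg mouse 3. At the intercalated disc, which couples cells, 2 of 12 were higher. Cdh2, N-cadherin, stood at 33.4, 35.2 and 26 CPM against 5.14, 5.84 and 7.58, with a log2 fold change of 2.36. Dsp, the desmosomal plaque protein desmoplakin, stood at 80.5, 98.0 and 144 CPM against 29.1, 26.3 and 41.8.

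Of 20 genes for calcium release and uptake 7 were higher and 0 lower (median 0.77), falling to 1 without Tg mouse 2. Casq2, the calcium buffer of the sarcoplasmic reticulum, stood at 32.8, 48.2 and 98.7 CPM in cardiomyocytes and 8.96, 8.08 and 22.3 in fibroblast libraries (log2 fold change 2.20, SE 0.33, adjusted p = 0.00807). Hrc, a partner of calsequestrin, stood at 39.2, 62.0 and 70.5 CPM against 13.4, 9.97 and 18.2. Srl, sarcalumenin, showed a log2 fold change of 1.95. Of 18 membrane ion channels only Kcnj11, the pore of the ATP-sensitive potassium channel, was called (9.99, 20.9 and 20.4 CPM against 4.41, 5.67 and 5.14), and the list median was 0.67.

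Genes of cardiac stress split. Nppb, which encodes the B-type natriuretic peptide, stood at 8.92, 25.3 and 27.8 CPM in cardiomyocytes and 1.25, 0.687 and 1.53 in fibroblast libraries, a 16.3-fold difference that passed in each leave-out (log2 fold change 4.03, SE 0.61, adjusted p = 0.00824). Ankrd1, a stretch-responsive titin partner, stood at 62.8, 112 and 75.4 CPM against 23.4, 16.9 and 22.5. Xirp2, an actin-binding protein of the intercalated disc, had a log2 fold change of 1.98. Lower in cardiomyocytes were Rcan1, an inhibitor and target of calcineurin (67.5, 44.1 and 74.2 against 396, 487 and 355 CPM), and Mt1, a metallothionein (log2 fold change −2.77). In this list 3 of 11 genes were higher and 3 lower, with a median of 1.70.

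The cardiac transcription factors, often used as lineage labels, barely separated the columns. Of 19, 1 was higher and 2 lower, near the 3.12% and 9.21% of all genes, with a median of 0.46. Hand2, which acts in ventricle development, stood at 59.9, 85.1 and 138 CPM in cardiomyocytes and 27.5, 9.28 and 9.47 in fibroblast libraries (log2 fold change 2.75). Irx3, an Iroquois factor of the conduction system, stood at 23.8, 40.7 and 67.9 CPM against 149, 359 and 146 (log2 fold change −2.31). Mef2a, a regulator of muscle genes, was also lower in the cardiomyocyte columns, at 155, 129 and 103 CPM against 323, 345 and 305.

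Energy genes that passed were also higher in cardiomyocytes, apart from those of glucose use. The 13 mitochondrially encoded genes made up 51.7, 74.7 and 74.8% of all counts in cardiomyocytes (67.1 ± 13.3%, SD, n = 3) and 36.6, 16.7 and 39.2% in fibroblast libraries (30.8 ± 12.3%). The groups did not overlap, and the difference within mice was 36.2 ± 21.5 percentage points (exact sign-flip permutation p = 0.25, two-sided, the smallest that 3 pairs allow). Of the 13 genes, mt-Nd3, a complex I subunit, was called (2372, 6471 and 10230.1 CPM of nuclear counts against 727, 244 and 1428, log2 fold change 3.07). All 13 were called without Tg mouse 1 and 0 without either of the others.

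Among nuclear-encoded complex I subunits 6 of 37 were higher and 0 lower (median 1.03), and among those of complexes II to V 8 of 42 were higher and 0 lower (median 0.71). Ndufv2, a core complex I subunit, stood at 70.2, 127 and 223 CPM against 30.4, 26.8 and 50.2 (log2 fold change 1.87, SE 0.35, adjusted p = 0.0174). Cox8b and Cox7a1, the muscle isoforms of complex IV subunits, had log2 fold changes of 2.24 and 2.05. These counts rested on the mice used. Without Tg mouse 3, 33 of 37 and 31 of 42 were higher, and without Tg mouse 2, 0 were. By contrast 1 of 40 mitochondrial ribosome genes was called higher, near the 3.12% of all genes, with a median of 0.48.

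Fuel use gave a similar order. Of 26 genes for fatty acid uptake and oxidation 3 were higher and 0 lower (median 0.82, 15 higher without Tg mouse 3), among them Acaa2, the last thiolase of beta-oxidation (130.1, 185 and 145 CPM against 65.2, 56.0 and 67.2). Ucp3, a mitochondrial carrier, was high in 1 heart, at 2.55, 32.8 and 4.83 CPM against 0.808, 1.98 and 0.722. In the citric acid cycle 2 of 20 were higher, and in creatine and ketone metabolism 3 of 9, among them Ckm, the muscle creatine kinase (135, 278 and 139 CPM against 57.8, 57.4 and 70.4).

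Glucose genes divided by isoform, with 4 of 25 higher and 4 lower and a median of −0.24, which was 0.11 under scaling by library size alone. Slc2a4, the insulin-responsive glucose transporter of muscle, stood at 19.2, 34.6 and 29.7 CPM in cardiomyocytes and 5.07, 4.98 and 9.47 in fibroblast libraries (log2 fold change 2.12). Ldhb, the heart lactate dehydrogenase subunit, stood at 126, 182 and 157 CPM against 48.5, 46.2 and 59.5. Hk3, a hexokinase of myeloid cells, stood at 12.2, 2.17 and 1.48 CPM against 155, 195 and 144 (log2 fold change −5.35). Hk2, the inducible hexokinase (log2 fold change −3.47), and Pfkfb3, the activator of glycolytic flux (−3.43), were also lower in cardiomyocytes.

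Bag3 itself (ENSMUSG00000030847.8, chromosome 7, 128523616 to 128546981, plus strand, GRCm38) stood at 167, 130.0 and 208 CPM in cardiomyocytes and 421, 601 and 232 in fibroblast libraries. Each mouse was lower in its cardiomyocytes and the columns did not overlap, but the gap was small in Tg mouse 3. The log2 fold change was −1.24 (SE 0.48, adjusted p = 0.127), and −1.79 (adjusted p = 0.0041) without Tg mouse 3, a fit that called more genes in all. The Bag3-WT mice gave a log2 fold change of −1.16. Whether transgene reads are counted in this row is not stated in the sources used here. In the BAG family 0 of 6 genes were called by edgeR, with 1 higher and 1 lower at an unadjusted p under 0.05 and by DESeq2, and 1 higher by voom. Bag2, a nucleotide exchange factor that inhibits the ubiquitin ligase CHIP and was chosen after its values were seen, stood at 6.37, 16.2 and 40.8 CPM against 3.60, 6.36 and 4.15, above in each mouse (log2 fold change 1.80, adjusted p = 0.0852). Bag2 was called without Tg mouse 1 (2.31, adjusted p = 0.0159), and without Tg mouse 3 its log2 fold change was 1.08 (adjusted p = 0.0862).

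The small heat shock proteins, which bind BAG3 directly, were higher in cardiomyocytes for 4 of 6 (median 1.51). Hspb2 stood at 8.82, 19.8 and 34.9 CPM against 2.28, 1.72 and 3.07 (log2 fold change 2.99, SE 0.52, adjusted p = 0.014). Cryab, alpha-B-crystallin, stood at 176, 241 and 174 CPM against 62.7, 49.0 and 84.0, and Hspb6 at 56.5, 131 and 96.5 against 32.1, 34.2 and 33.0. Without Tg mouse 2 only 1 of the 6 was called. Hspb8, the member best known as a BAG3 partner and named here after its values were seen, was nearly level over the cardiomyocytes, at 79.5, 80.0 and 78.0 CPM against 54.2, 43.0 and 38.2, and did not pass (log2 fold change 0.83, adjusted p = 0.109). Without Tg mouse 3 Hspb8 was called (0.71, adjusted p = 0.0456).

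The HSP70 side held few calls. Of 24 HSP70, HSP90, DNAJ and HSF genes 2 were lower, near the 9.21% of all genes, and 0 higher (median −0.34). Hspa1a, the inducible HSP70, stood at 144, 114 and 182 CPM against 608, 474 and 414 (log2 fold change −1.77), and Dnajb6, a J-domain partner at the Z-disc, at 78.7, 74.9 and 87.2 against 217, 262 and 283. Both lost the call without Tg mouse 1 (adjusted p = 0.108 for Hspa1a and 0.0527 for Dnajb6) and without Tg mouse 2 (0.193 and 0.174), which left 0 calls in the list. Without Tg mouse 3, 10 of the 24 were lower and 1 higher, in a fit that called 2577 lower and 1644 higher genes. Hspa1a and Hspa1b are near-identical copies whose reads may be split, and Hspa1b (chosen after its values were seen) overlapped, with 833 CPM in the cardiomyocytes of Tg mouse 3. Without that mouse Hspa1b was called lower (log2 fold change −1.80, adjusted p = 0.00163).

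Downstream, Sqstm1 separated the columns most. It encodes p62, the autophagy receptor to which BAG3 passes its cargo, and stood at 343, 546 and 355 CPM in cardiomyocytes against 3905, 6444 and 2337 in fibroblast libraries (log2 fold change −3.27, SE 0.42, adjusted p = 0.00527). Optn, another autophagy receptor (log2 fold change −1.91), and Ulk1, the kinase that starts autophagy (−1.26), were also lower. This made 3 lower calls among 20 autophagy genes, beside 9.21% of all genes tested. The list as a whole was not lower, with 13 of the 20 log2 fold changes positive and a median of 0.13. Optn lost its call without Tg mouse 2 (adjusted p = 0.068) and Ulk1 without Tg mouse 1 (0.127) or 2 (0.309). Of 20 lysosome genes 5 were lower and 0 higher, among them the lysosomal hydrolase Gla (9.88, 8.49 and 3.71 CPM against 55.1, 84.8 and 65.2) and Ctss, a cathepsin of antigen-presenting cells. Of 31 proteasome subunits 0 were called by edgeR, with 9 higher at an unadjusted p under 0.05, 4 by DESeq2 and 3 by voom (median 0.47). Cytosolic ribosomal protein genes had 0 of 51 called by edgeR, 1 in each direction at an unadjusted p under 0.05, 1 lower by DESeq2 and by voom, and a median of −0.06 that was 0.29 under scaling by library size alone.

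The widest differences lay in inflammatory genes, nearly all lower in cardiomyocytes. Cxcl2, a neutrophil-attracting chemokine, stood at 3.72, 4.94 and 2.23 CPM in cardiomyocytes and at 1378, 1389 and 2868 CPM in fibroblast libraries, a 468-fold difference (log2 fold change −8.87, SE 0.65, adjusted p = 0.00202). Cxcl10, an interferon-induced chemokine for T cells, stood at 3.19, 4.54 and 2.97 CPM against 600.5, 891 and 943, a 221-fold difference. Ccl4, a chemokine for macrophages and T cells, stood at 1.38, 4.35 and 3.34 CPM against 869, 984 and 1696. These cardiomyocyte levels were low in each mouse. Of 22 chemokine ligands 17 were lower and 0 higher (median −3.15), and 13 to 20 were lower over the leave-outs.

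The 250 bases before the RefSeq starts of Cxcl2 (chr5:90903649-90903898, plus strand) and Cxcl10 (chr5:92348890-92349139, minus strand) are shown because these genes differ so widely and hold the kB motif and the interferon element, each found in a larger share of their lists than of all genes. Written 5′ to 3′ on GRCm38.p6, the capitals mark the kB motif bound by NF-kB in both and, in Cxcl10, first the interferon-stimulated response element (GAAA, any 2 bases, GAAA).
Cxcl2: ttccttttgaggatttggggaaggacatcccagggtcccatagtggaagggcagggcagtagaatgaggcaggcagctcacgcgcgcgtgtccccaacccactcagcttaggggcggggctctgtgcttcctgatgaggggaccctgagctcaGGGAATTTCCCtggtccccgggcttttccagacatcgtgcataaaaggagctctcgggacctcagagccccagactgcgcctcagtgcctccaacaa
Cxcl10: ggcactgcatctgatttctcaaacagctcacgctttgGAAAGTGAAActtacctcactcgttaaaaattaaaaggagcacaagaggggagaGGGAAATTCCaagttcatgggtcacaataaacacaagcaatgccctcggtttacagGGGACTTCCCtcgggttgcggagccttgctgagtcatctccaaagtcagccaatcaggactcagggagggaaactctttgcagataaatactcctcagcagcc
In Cxcl2 overlapping kB matches begin 97 and 96 bases before the start. In Cxcl10 kB matches begin 159 and 103 bases before the start and the interferon element 213 before it. The kB motif was in 35.7% of chemokine ligand promoters (5 of 14) and 57.1% of those of NF-kB feedback inhibitors (8 of 14). It was in 5.14% of all 27025 genes, 6.55% of the 10042 tested, 10.6% of the 925 lower genes and 6.73% of the 312 higher genes with a promoter. The interferon element was in 61.1% of the interferon-stimulated genes (11 of 18) and 3.99% of all genes. Both were searched on both strands from 250 bases before to 50 after the start, and a match does not show binding.

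Cytokines behaved likewise, with 13 of 17 interleukins, TNF and growth cytokines lower, 0 higher and the lowest median among the lists of inflammation, −5.13. Tnf stood at 3.61, 4.15 and 3.34 CPM in cardiomyocytes and 538, 655 and 1099 in fibroblast libraries (log2 fold change −7.57, SE 0.51, adjusted p = 0.00172). Il1a, interleukin 1 alpha, was at 0.319, 0 and 0.371 CPM against 142, 136 and 325. Il1rn, the antagonist of the same receptor, moved with it, at 1.81, 4.54 and 2.23 CPM against 348, 562 and 611. Among receptors for interleukins and TNF 10 of 17 were lower, among them Csf2ra, a receptor chain for GM-CSF (31.1, 55.3 and 10.0 CPM against 468, 740.2 and 125). Of 13 chemokine receptors 5 were lower, including Ccrl2, an atypical receptor (23.5, 27.7 and 7.80 CPM against 238, 336 and 303).

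The signalling layer between receptors and cytokines was lower as well, for 15 of 24 toll-like receptor and NF-kB pathway genes (median −2.19). Tlr2, a receptor for bacterial lipoproteins, stood at 31.6, 33.4 and 5.57 CPM against 804, 1254 and 536, and Rel, an NF-kB subunit, at 13.7, 9.28 and 4.45 against 306, 315 and 305. The inhibitors that NF-kB itself induces were lower for 14 of 15, and 14 in each leave-out (median −3.49). Tnfaip3, the ubiquitin-editing brake A20, stood at 28.0, 23.1 and 32.7 CPM against 599.7, 889 and 876 (log2 fold change −4.81). Nlrp3, the sensor of the inflammasome, stood at 8.5, 7.70 and 7.05 CPM against 616, 711 and 563, 1 of 4 lower genes in a list of 10.

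Of 21 interferon-stimulated genes 15 were lower and 0 higher (median −2.78). Oasl1 stood at 8.39, 10.1 and 9.65 CPM in cardiomyocytes and 1368, 1748 and 1201 in fibroblast libraries, a 153-fold difference, and Rsad2, the antiviral enzyme viperin, had a log2 fold change of −5.24. Antigen presentation by class II was lower for 9 of 12 genes, such as H2-Ab1 (467, 614 and 131 CPM against 2746, 3803 and 804), and 2 of 12 class I genes were (5 without Tg mouse 3). In complement 6 of 14 were lower, such as the anaphylatoxin receptor C5ar1 (73.4, 64.2 and 20.4 CPM against 881, 1158 and 462). C2, a protease of the classical pathway, was higher, at 61.3, 58.7 and 38.6 CPM against 14.3, 12.3 and 5.23.

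Macrophage markers moved with these lists. All 15 had negative log2 fold changes, their summed level was 1286 to 4161 CPM in cardiomyocytes and 6274 to 15376 in fibroblast libraries, and none of the columns lacked them. Of the macrophage markers tested, Cd14 had the largest fold, at 22.5. Scavenger and phagocytic receptors were lower for 9 of 18, such as Msr1 (18.4, 23.9 and 7.42 CPM against 118, 139 and 77.9). Neutrophil markers summed to 49.2, 66.2 and 8.9 CPM against 200, 187 and 58.3, with 2 of 5 lower. T, B and NK cell markers summed to 61.7, 49.8 and 12.2 CPM against 119, 61.4 and 30.0, overlapping, with 2 of 12 lower. The part of these cells in the inflammatory differences was not tested.

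**Figure D4:**
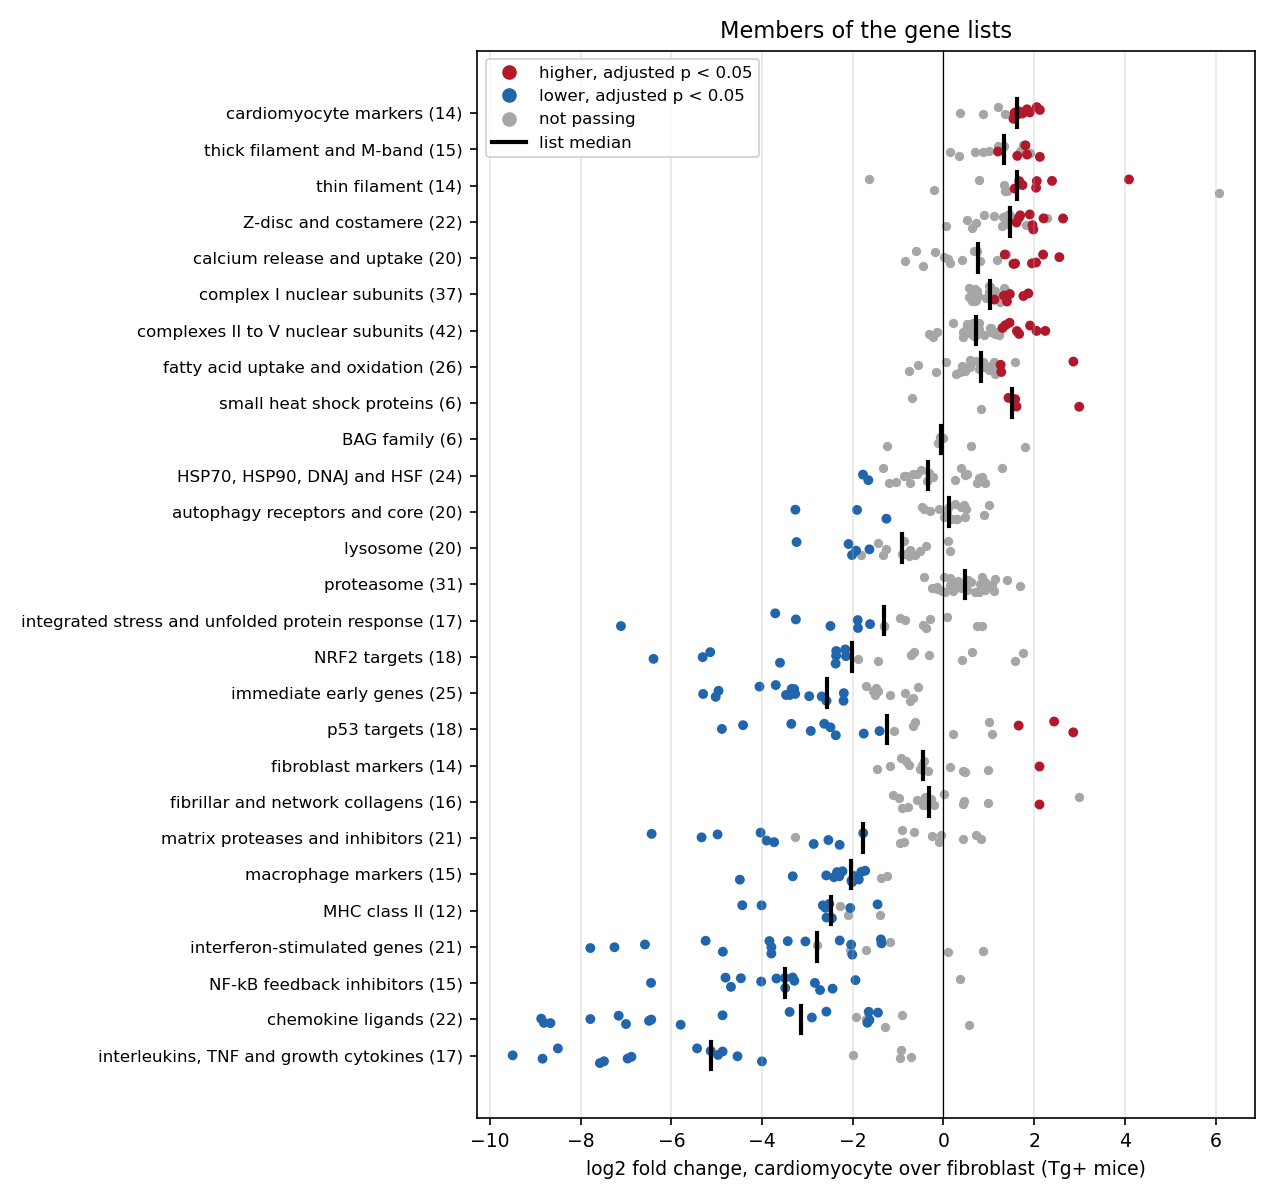
Log2 fold change of cardiomyocyte over fibroblast (horizontal axis) for each tested member of 27 gene lists, with the number tested in brackets, red and blue for genes called higher and lower, grey for the others and a black bar at the list median. Sarcomere and respiratory lists sit to the right with medians of 0.71 to 1.62, and the inflammatory lists spread to the left as far as −9.50.

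Stress programmes that many cell types share were also lower in cardiomyocytes. Of 18 NRF2 targets, the antioxidant genes that p62 and KEAP1 regulate, 9 were lower and 0 higher (median −2.01). Hmox1, heme oxygenase, stood at 39.4, 64.0 and 24.1 CPM against 3278, 7815 and 1391 (log2 fold change −6.39, SE 0.49, adjusted p = 0.00218). Srxn1, sulfiredoxin, stood at 24.2, 28.4 and 16.7 CPM against 821, 1869.6 and 463, and Slc7a11, the cystine importer, had a log2 fold change of −5.14. In all of these Tg mouse 2 had the highest fibroblast level. Without Tg mouse 2 the list had 6 lower genes.

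In the integrated stress and unfolded protein response 7 of 17 were lower and 0 higher. Gdf15, a stress cytokine, stood at 4.57, 8.30 and 0.742 CPM against 516, 859 and 307 (log2 fold change −7.11), and Ppp1r15a, the phosphatase subunit that restores translation, at 82.4, 115 and 28.6 against 1139, 736 and 737. Immediate early genes, which rise within the first hour of many stimuli and during cell isolation, were lower for 15 of 25 and higher for 0 (median −2.58). Fosb stood at 62.3, 71.1 and 27.5 CPM against 1726, 1276 and 1727. How the isolation differed between the cell types is not stated in the sources used here, and its part was not tested.

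The p53 targets split by gene, with 3 of 18 higher and 9 lower. Phlda3, an inhibitor of AKT, stood at 143, 272 and 539 CPM in cardiomyocytes and 44.1, 31.2 and 40.6 in fibroblast libraries (log2 fold change 2.86). Perp, a desmosomal protein, stood at 44.7, 37.9 and 22.3 CPM against 9.84, 4.04 and 5.86, and Ccng1, cyclin G1, had a log2 fold change of 1.66. Gadd45b stood at 23.2, 25.5 and 8.91 CPM against 639.7, 523 and 431 (log2 fold change −4.89). The death receptor Tnfrsf10b (−4.42) and the apoptosis gene Pmaip1 (−3.36) were also lower.

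Matrix genes did not mark the fibroblast libraries. Of 16 collagens 1 was called, beside 3.12% of all genes higher and 9.21% lower. This was Col1a1, at 4135, 1888 and 3526 CPM in cardiomyocytes and 515, 774 and 853 in fibroblast libraries (log2 fold change 2.11, SE 0.46, adjusted p = 0.0295, and 0.11 without Tg mouse 1). Col1a2, the other chain of type I collagen, named here after its values were seen, stood at 1817, 1142 and 961 CPM against 485, 767 and 680.4 and did not pass (log2 fold change 0.99, adjusted p = 0.169). Without Tg mouse 3 Col1a2 was called higher (1.23, adjusted p = 0.0447). Among 28 matrix glycoproteins 3 were higher and 1 lower. Fn1, fibronectin, stood at 2717, 820.2 and 2087 CPM against 601, 475 and 319 (adjusted p = 0.0461, and 0.11 without Tg mouse 1). Tnc, tenascin C, stood at 58.4, 157 and 797 CPM against 19.5, 25.8 and 19.7, highest in Tg mouse 3 (log2 fold change 3.11, and 2.09 with an adjusted p of 0.00299 without that mouse).

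The list of matrix proteases and inhibitors went the opposite way, with 10 of 21 genes lower and 0 higher (median −1.77). Adamts4, an aggrecanase, stood at 13.3, 11.1 and 10.8 CPM in cardiomyocytes and 820.0, 1181 and 1080.3 in fibroblast libraries (log2 fold change −6.44, SE 0.46, adjusted p = 0.00174). Plaur, the urokinase receptor, stood at 14.1, 9.88 and 10.0 CPM against 278, 428 and 381. In the TGF-beta pathway 1 of 21 was higher and 3 were lower, near the 3.12% and 9.21% of all genes. Without Tg mouse 3, which raised the calls over all genes, 3 were higher and 7 lower. Tgfb1, the ligand, stood at 144, 145 and 86.9 CPM against 525, 819 and 374, and Bmp2 at 9.99, 22.1 and 5.20 against 94.9, 187 and 75.1. The list of Wnt genes had 1 of 15 higher (Dkk3, a secreted Dickkopf protein) and 1 lower (Wnt11), again close to the shares of all genes. Both lost the call without Tg mouse 2 (adjusted p = 0.218 and 0.12). Without Tg mouse 1, 4 were higher. Dkk1, described below, is not in this list.

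Contractile genes of smooth muscle were higher in cardiomyocyte columns for 3 of 12 markers (median 1.35). Acta2, smooth muscle actin, stood at 305, 789 and 2492 CPM against 36.1, 38.8 and 30.9 (log2 fold change 4.56, SE 0.72, adjusted p = 0.00932). Tagln, transgelin, stood at 258, 692 and 155 CPM against 29.2, 31.2 and 37, and Cnn1, calponin, at 18.9, 43.9 and 2.23 against 2.13, 1.89 and 0.271. The mice were not ordered alike: Tg mouse 3 was highest for Acta2 and lowest for Tagln and Cnn1. Without it Acta2 had a log2 fold change of 3.70 (adjusted p = 0.000713).

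Smaller numbers of calls came from other lists. In the cell cycle 3 of 25 were higher and 1 lower, such as the mitotic genes Top2a (50.4, 41.9 and 95 CPM against 11.2, 9.11 and 10.6), Plk1 (26.1, 15.6 and 119.9 against 1.17, 1.55 and 0.902) and Cenpf, while Pcna, the replication clamp, was lower (log2 fold change −1.95). Plk1, highest in Tg mouse 3, had a log2 fold change of 4.88, and of 3.89 (adjusted p = 0.00105) without that mouse. The circadian clock had 5 of 16 lower, including Bhlhe40 (142, 112 and 41.9 CPM against 715, 774 and 505). Abca1, the cholesterol exporter, was lower, at 98.2, 70.7 and 50.5 CPM against 695, 1036 and 329.7 (log2 fold change −3.13). Of 12 enzymes of eicosanoid and arginine metabolism 4 were lower, among them Ptgs2, the inducible cyclooxygenase (22, 16.2 and 9.65 CPM against 363, 489 and 426).

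Other lists moved with the mice in the fit as well. Over all genes the calls rose to 1644 higher and 2577 lower without Tg mouse 3. They fell to 243 and 741 without Tg mouse 2. The list counts here are to be read beside those totals. Without Tg mouse 3 the counts of higher genes were 8 of the smooth muscle markers, 8 ion channels, 7 citric acid cycle genes, 6 creatine and ketone genes, 5 transcription factors and 6 matrix glycoproteins, and those of lower genes were 12 lysosome genes, 11 integrated stress genes, 15 scavenger receptors and 8 clock genes. Without Tg mouse 2 no citric acid cycle or creatine and ketone gene was called, 2 lysosome and 3 complement genes were lower, and 1 clock gene was. The cell cycle had 7 higher genes without Tg mouse 1.

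Many single genes named above also lost their call when 1 mouse was left out, with the same direction. Of the contractile and calcium genes these were, without Tg mouse 2, Ttn, Myl3, Myom2, Tpm1, Lmod3, Actc1, Myoz2, Fhl2, Dsp, Hrc, Srl, Kcnj11, Ankrd1 and Xirp2. Of the energy genes they were Ndufv2, Cox8b, Cox7a1, Acaa2, Ucp3, Ckm, Slc2a4 and Ldhb. The others were Cryab, Hspb6, Mef2a, Irx3, Cldn5, Wt1, Cnn1, Ccng1, Pcna and Tgfb1. Acaa2, Ckm, Cryab, Kcnj11 and Mef2a lost it without Tg mouse 1 too, and Wt1 without Tg mouse 3.

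The 12 genes with the largest rise in cardiomyocytes fell into a few kinds. Rpl10l, Aldoart2, Csl, Pcna-ps2 and Pin1rt1 are near-identical copies of other genes, so the reads counted to them are uncertain. Rpl10l stood at 9.88, 45.8 and 139 CPM against 0.0734, 0 and 0. The pooled ratio was 1480 with a 95% counting interval of 265 to 58529, since the fibroblast libraries held 1 count. Aldoart2 had a ratio of 1205 (215 to 47659), Csl of 887 (158 to 35117), Pcna-ps2 of 486 (166 to 2363), Pin1rt1 of 253 (69.3 to 2101) and the clone-named gene RP24-399H1.2 of 702 (240 to 3410). These intervals cover counting error only.

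Others were secreted antagonists and patterning factors. Grem1 encodes a BMP antagonist, Dkk1 a Wnt antagonist, and En1, Tbx15 and Hoxa9 transcription factors of embryonic patterning. Grem1 stood at 11.4, 28.4 and 231 CPM in cardiomyocytes and 0.441, 0.0859 and 0 in fibroblast libraries (log2 fold change 7.83, SE 1.24, adjusted p = 0.00968). Tbx15 stood at 3.72, 45.2 and 199.7 CPM against 0.514, 0.344 and 0.18, En1 at 7.54, 9.28 and 79.1 against 0, 0 and 0.451, and Hoxa9 at 4.46, 19.0 and 46.4 against 0.22, 0.0859 and 0.18. All of these were highest in the cardiomyocytes of Tg mouse 3. Without it Grem1 (log2 fold change 5.95), Hoxa9 (5.78), Tbx15 (5.04) and En1 were still called, with adjusted p-values of 0.00207, 0.0035, 0.0162 and 0.00219. For Dkk1, at 75.9, 7.70 and 80.9 CPM against 0.514, 0.687 and 0.0902, Tg mouse 1 was close behind.

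Of the 12 genes with the largest fall, 10 are chemokines, cytokines, growth factors or genes of myeloid activation: Il1a, Ifnb1, Areg, Cxcl2, Csf3, Cxcl3, Ccl4, Clec4e, Il6 and Acod1. Il6 stood at 0.531, 2.57 and 0 CPM against 234, 316 and 739 (log2 fold change −8.50, SE 0.90, adjusted p = 0.0032). Ifnb1, interferon beta, stood at 0.106, 0.198 and 0 CPM against 51.3, 51.3 and 227, a pooled ratio of 900 (249 to 7435) of fibroblast to cardiomyocyte. Areg, the growth factor amphiregulin, had a ratio of 580 (198 to 2814), and Csf3, the granulocyte growth factor, of 800 (143 to 31625). Clec4e, a myeloid sensor of dying cells, stood at 0, 1.19 and 0 CPM against 112, 157 and 129.9, and Acod1, which makes itaconate, at 0, 1.19 and 0.742 against 132, 241 and 156.

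Hmcn2, a hemicentin of the extracellular matrix, and Fam71a complete that set. Hmcn2 stood at 0, 0 and 0.742 CPM in cardiomyocytes and 169, 219 and 203 in fibroblast libraries, a pooled ratio of 1678 (464 to 13856). Fam71a had 0 counts in all cardiomyocyte columns and 15.7, 6.19 and 44.8 CPM in fibroblast libraries, at least 123-fold lower against a floor of 3 counts over the group.

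The last comparison asked whether the cell type effect differed between Tg+ and Bag3-WT mice, in a fit of all 12 columns. Of 14236 genes 0 (0%) passed an adjusted p of 0.05 with edgeR, 137 had an unadjusted p under 0.05, DESeq2 called 1 and limma voom 0. With so few mice per genotype, an absence of calls does not show that the effects are equal. Of the 1655 genes called in Tg+ mice, 1653 had the same sign in Bag3-WT mice. Across genes the effects of the genotypes correlated at 0.853, which describes genes in these libraries and is no test across mice. The WT and Tg+ effects come from different animals.

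List medians of that fit are given for Tg+ and then for Bag3-WT mice. Over 61 lists with at least 5 genes tested, the medians of the genotypes lay less than 0.5 apart in 52 and had opposite signs in 4. They were farthest apart for cardiac transcription factors (0.45 and 1.38), mesothelial markers (3.13 and 2.36), erythroid markers (−1.25 and −1.97) and collagens (−0.32 and 0.36). Cardiomyocyte markers had 1.60 and 1.90, small heat shock proteins 1.57 and 1.59, chemokine ligands −3.14 and −2.86, cytokines −5.16 and −5.32, and NRF2 targets −2.02 and −2.28. Thick filament genes had 1.31 and 1.97, and calcium genes 0.76 and 1.39. The differences of list medians were not tested. The share of mitochondrial counts differed between cell types by 37.6 percentage points in Bag3-WT mice, against the 36.2 above.

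The gene that DESeq2 called was Dhx35, an RNA helicase of the spliceosome (adjusted p = 0.0271 in DESeq2). Dhx35 had 123, 96 and 55 counts in Tg+ cardiomyocytes and 0, 2 and 1 in Bag3-WT cardiomyocytes, without overlap. In fibroblast libraries it had 138, 145 and 31 counts in Tg+ and 148, 64 and 106 in Bag3-WT mice, with overlap. The log2 cell type effect of Dhx35 was 1.2 in Tg+ and −4.65 in Bag3-WT mice, and the difference of 5.85 (SE 1.13) had an adjusted p of 1 in edgeR. Angptl4, an inhibitor of lipoprotein lipase, had effects of −2.85 and −4.91, and Tbk1, a kinase that phosphorylates autophagy receptors and interferon factors, −1.80 and −3.34. Neither passed, both with an adjusted p of 1, and they are named as the next lowest p-values. For Bag3 the effects were −1.25 and −1.16.

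**Figure D5:**
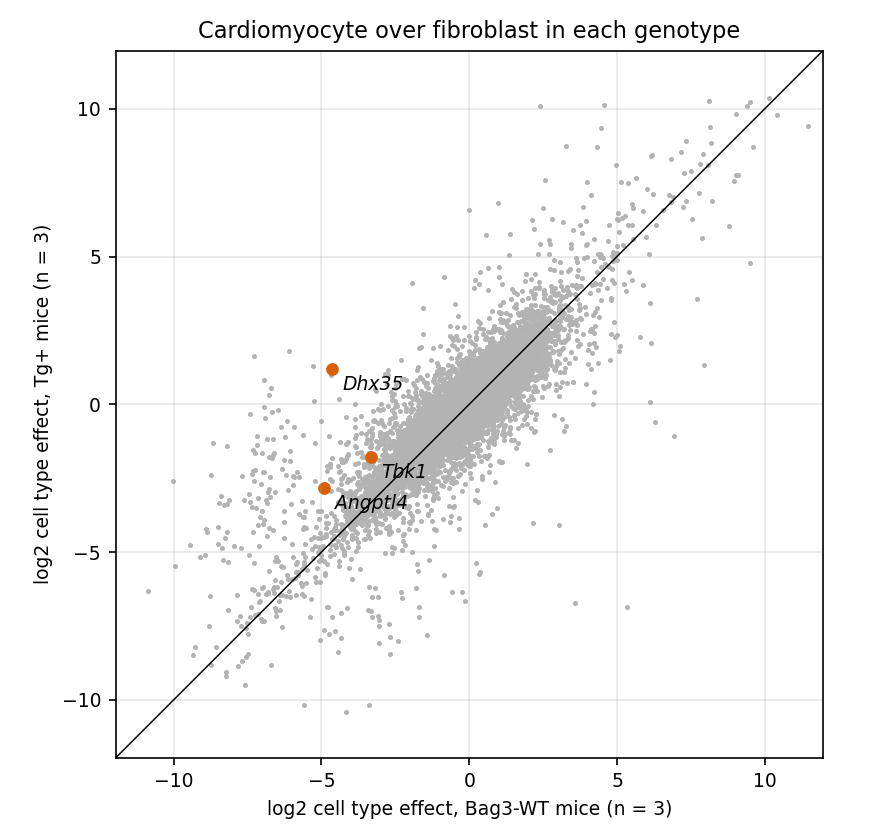
Log2 cell type effect (cardiomyocyte over fibroblast) of each of 14236 genes in Tg+ mice (vertical axis, n = 3) against that in Bag3-WT mice (horizontal axis, n = 3), with the line of equal effects. Most genes lie along the line (r = 0.853), and Dhx35, at 1.2 and −4.65, lies far from it.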

How the data were processed

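The deposited tables were used as the authors left them. The first holds expected counts per gene, estimated by the authors and not whole for 44.7% of values. The second holds a normalized signal that the authors deposited, used only as an alternative, as log2(value + 1) in limma. Per the submitters' processing notes kallisto 0.44.0, DESeq2 1.18.1, R 3.4.4 and GRCm38.p6 were used, with no roles given. Columns not mapped to a sample numbered 0.

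Expected counts of rep1 and rep2 were summed per mouse and rounded. The 13 mitochondrial genes were left out of library sizes and TMM factors but kept as rows to test. Genes passed filterByExpr. edgeR 4.0.16 (R 4.3.3) fitted a robust quasi-likelihood model with mouse and cell type to the 6 Tg+ columns, and mouse with the interaction of cell type and genotype to 12 columns, two-sided, with Benjamini-Hochberg adjustment over all genes tested. The mouse pairs the columns because the animal code is shared. As a check, deviations from the cell type means correlated within mice at 0.125, 0.178 and 0.157 over 10304 genes, and at −0.176 to 0.052 in other pairings. Deviations of a cell type sum to 0 over the mice, so positive values within mice partly force lower ones in other pairings. The check does not settle whether the columns of Tg mouse 3, which differ in Y-linked counts, come from the same animal. The labels do not say whether rep1 and rep2 are separate preparations, so the mouse was the unit, and with 3 mice the p-values are imprecise.

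Alternatives used limma 3.58.1 (voom) and DESeq2 1.42.0, other scalings, no filter, single repeats, thinned counts and each mouse left out. The deposited signal and the fits without single Bag3-WT mice were chosen as alternatives after seeing the data. The fits were tested on simulated data. Total counts were 10.9 M to 23.3 M (M for 1000000) per Tg+ column, and 3 counts equal 0.385 to 1.10 CPM in cardiomyocytes and 0.201 to 0.265 in fibroblast libraries before TMM. Intervals are exact and cover counting error only.

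The members and the 63 gene lists were chosen with earlier results of these data known, so list counts are descriptions. Lists overlap in part. Named are Bag3 and the 4 markers, the 12 genes with the largest change in each direction (adjusted p under 0.05, at least 20 CPM in the higher cell type, no overlap, no predicted symbols), up to 3 genes per list and direction with the lowest p, and the 3 lowest p-values of the interaction. Not every gene that this rule names is reported here. Acta1 and any gene so marked in the text were chosen after their values were seen. Positions come from GENCODE M21 and promoters from RefSeq, GRCm38.p6.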

Additional observations from a re-analysis of the deposited data

How the results depend on the processing

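Higher genes numbered 419 and lower genes 1236 in the fit with the mouse as replicate block. The animal code pairs the columns, and with no replicate block 677 were higher and 1282 lower, so pairing moved the higher count by over 1.5 times. Higher genes numbered 810 with scaling by nuclear library size, 1081 with DESeq2, 994 with voom and 953 with all 6 mice in 1 fit. Lower genes numbered 793 with scaling by nuclear library size and 1979 with DESeq2. Leaving out each mouse in turn gave 243 to 1644 higher and 741 to 2577 lower genes, the lowest without Tg mouse 2 and the highest without Tg mouse 3. The interaction had 0 genes with edgeR and, with DESeq2, 1 with a more positive effect in Tg+ mice. The cause of these shifts was not tested. Of 180 named genes called, 0 reversed under any alternative. Calls held for 180 with DESeq2 and with voom, 178 without Tg mouse 3 and 163 without Tg mouse 1. They held for 160 with no replicate block and 152 with the deposited signal (54 of 77 higher and 98 of 103 lower genes). Without Tg mouse 2 they held for 116, where 37 of 77 higher and 79 of 103 lower genes stayed past the threshold. Most of these genes were named for a low p or a large change in the main fit, which favours calls that hold. The list medians changed sign in 25 of 882 values, in 11 of 63 lists, among them the fibroblast markers, collagens, glycolysis and endothelial markers. The cardiomyocyte columns are the shallower ones, so low genes there are the least precise.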

Other observations

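Olfactory and vomeronasal receptor genes, which heart cells are not known to use, served as a view of background and were chosen after their values were seen. Their 731 genes summed to 124, 125 and 205 CPM in the cardiomyocyte columns of Tg mice 1, 2 and 3 and to 189, 139 and 288 CPM in the fibroblast columns, with overlap. Tg mouse 3 was highest in both.

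Because several of the largest rises were in near-identical copies of other genes, genes were divided by the number of exons in GENCODE M21. Of 265 single-exon genes tested 12 were higher and 29 lower in cardiomyocytes, with a median log2 fold change of 0.18. Of 12523 genes with several exons 396 were higher and 1164 lower, with a median of −0.02.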
